A study of Mus musculus with 42 samples.

Results

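The genes described here encode enzymes that convert and remove foreign compounds. They were chosen by symbol alone, as those on both array designs of the study whose annotated symbol begins with Cyp1, Cyp2, Cyp3, Cyp4, Fmo, Aox, Ephx, Aldh, Ugt1, Ugt2, Sult, Gsta, Gstm, Gstp, Gstt or Gsto and goes on to a number. The rule gave 98 genes of the 12276 symbols that both designs carry, measured by 103 probes on the first design and 136 on the second. A further 3 genes that fit the rule lie only on the first design and 39 only on the second, and they were left out. Gene expression was measured in whole adult mouse tissue by 2-colour arrays, with each RNA hybridised against the same universal mouse reference RNA. The labelled samples were 6 normal skins without treatment, whose strain and sex the labels do not give, and 25 tumours of female Sencar mice initiated at 7 to 8 weeks of age, with DMBA/TPA as the agent. The tumours were 9 papillomas labelled low risk, 10 labelled high risk and 6 squamous cell carcinomas. A further 10 papillomas, labelled as unknown in risk, lay on the second design and entered no comparison. Every difference between a tumour and normal skin therefore holds treatment with DMBA/TPA on 1 side only, and a possible difference of strain and sex cannot be told apart from it.

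Xenobiotic metabolism runs in phases. Phase I enzymes (cytochromes P450, flavin-containing monooxygenases, aldehyde oxidases, epoxide hydrolases and aldehyde dehydrogenases) oxidise, reduce or hydrolyse a compound, and phase II enzymes attach glucuronic acid (Ugt), sulfate (Sult) or glutathione (Gst) to it, which makes it easier to excrete. The carcinogen DMBA is turned into a DNA-binding diol epoxide by cytochromes P450 of family 1 together with microsomal epoxide hydrolase, and glutathione transferases remove electrophiles of this kind. In skin some of these families also handle the body's own lipids, such as retinoids, cholesterol sulfate and oxidised fatty acids.

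All levels are given as log2 of sample over reference, centred on each array's median, so a level is relative to a mixed RNA pool and cannot be compared between genes. The direction of the deposited ratios is likely rather than stated: with the signs as deposited, the median of 18 skin genes was negative on each of the 31 arrays that carried the sample in Cy3 (-4.51 to -0.91) and was 2.48 on the array with swapped dyes. The labelled arrays held 16286 to 21494 measured probes, and their number limits the precision. The arrays were grouped by which probes were empty and cut into a fixed number of 5 sets, called A to E. These sets followed the sample groups in part. Of the normal skins 4 were in A, 1 in C and 1 in D. The low-risk papillomas split between B, with 6, and D, with 3, the high-risk ones between C and E, with 4 each, and A and D, with 1 each, and the carcinomas between D, with 4, and C, with 2. Normal skin 1 and carcinoma 6 were near-identical (r = 0.984 over probes, themselves no independent replicates, against 0.876 for the next most alike pair), with a median difference of 0.08 over 76 of the enzyme genes measured in both. Without this pair, 19 of the 22 calls below remained and 11 others were gained, and these changes are given with their genes. Over all probes, calls against normal skin then went from 1427 to 1526 in low-risk papillomas. They went from 948 to 1363 in high-risk papillomas and from 219 to 488 in carcinomas, and did not rise between tumour groups. Of markers fixed for the tissue, the 10 keratinocyte genes tested had a mean log2 level above 0 in every sample, the lowest being 1.03. A mean over genes does not speak for each of them. In whole tissue, fewer cells of a type and less RNA per cell cannot be told apart.

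Of the 98 genes, 94 had enough values to be tested, 61 of phase I and 33 of phase II. Aldh9a1, Cyp2j5, Cyp4f18 and Sult3a1 did not. The groups were compared with limma in 1 model, with adjustment over all 18904 probes tested and a threshold of 0.05. Of these probes 13465 had a symbol. Values over all probes thus include probes without a symbol, while each of the 94 genes has one, so the 2 sets are unlike in this. Shares over the probes with a symbol alone are not given here. The 6 comparisons share their groups, so they are not independent of each other. Most calls came from papillomas against normal skin, which are also the comparisons with most calls over all probes. In low-risk papillomas against normal skin 12 of the 94 genes passed, 9 higher and 3 lower, where 7.55% of all probes passed, 3.94% higher and 3.61% lower. In high-risk papillomas against normal skin 6 passed, all higher, with 5.01% of all probes passing and 2.57% higher. In carcinomas against normal skin 2 passed, both higher, with 1.16% of all probes passing and 0.254% higher. In carcinomas against low-risk papillomas 1 rose and 1 fell, with 1.12% of all probes passing, 0.354% higher and 0.767% lower. High-risk against low-risk papillomas gave 0 genes by limma, with 0.667% of all probes passing, and carcinomas against high-risk papillomas also gave 0, with 0.0423% passing. At limma's unadjusted p under 0.05 the former gave 19 genes, 20.21% of the 94 against 17.28% of all probes. The latter gave 18, or 19.15% against 10.49%. With limma's array weights, which give less weight to arrays that vary more, high-risk against low-risk papillomas gave 8 genes, 6 higher and 2 lower, among 1187 probes of all. In the order of the 5 other comparisons above, the weighted counts were 31, 19, 22, 13 and 0, among 4519, 3402, 3158, 1776 and 150 probes of all. The calls were 22 in 17 genes, so 18.1% of the 94 were called in any of the 6 comparisons, against 10.8% of all probes. Without the swapped array, 8 of the 22 calls were lost, those of Cyp2b10, Cyp2d22, Ugt2a1 and Ugt2b5 in low-risk papillomas, of Aldh1a2, Cyp3a13 and Gstm1 in high-risk papillomas and of Gsta2 in carcinomas (adjusted p = 0.0512 to 0.196).

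These genes did not move as a block. In low-risk papillomas against normal skin the median log2 difference was -0.11 over the 94 genes and -0.02 over all probes, with 44 genes above 0 and 50 below. The median size of the difference, without its sign, was 0.68 against 0.39 over all probes. Phase I genes had a median difference of -0.19 and phase II genes of 0.00 there, and in high-risk papillomas these were -0.05 and 0.27. The enzyme genes also varied more among samples of the same group, with a median within-group SD of 0.78 against 0.58 for all probes tested. Aldh1a1, a retinal dehydrogenase, varied most (SD 2.42), and Cyp2b10 least (SD 0.27).

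**Figure D1:**
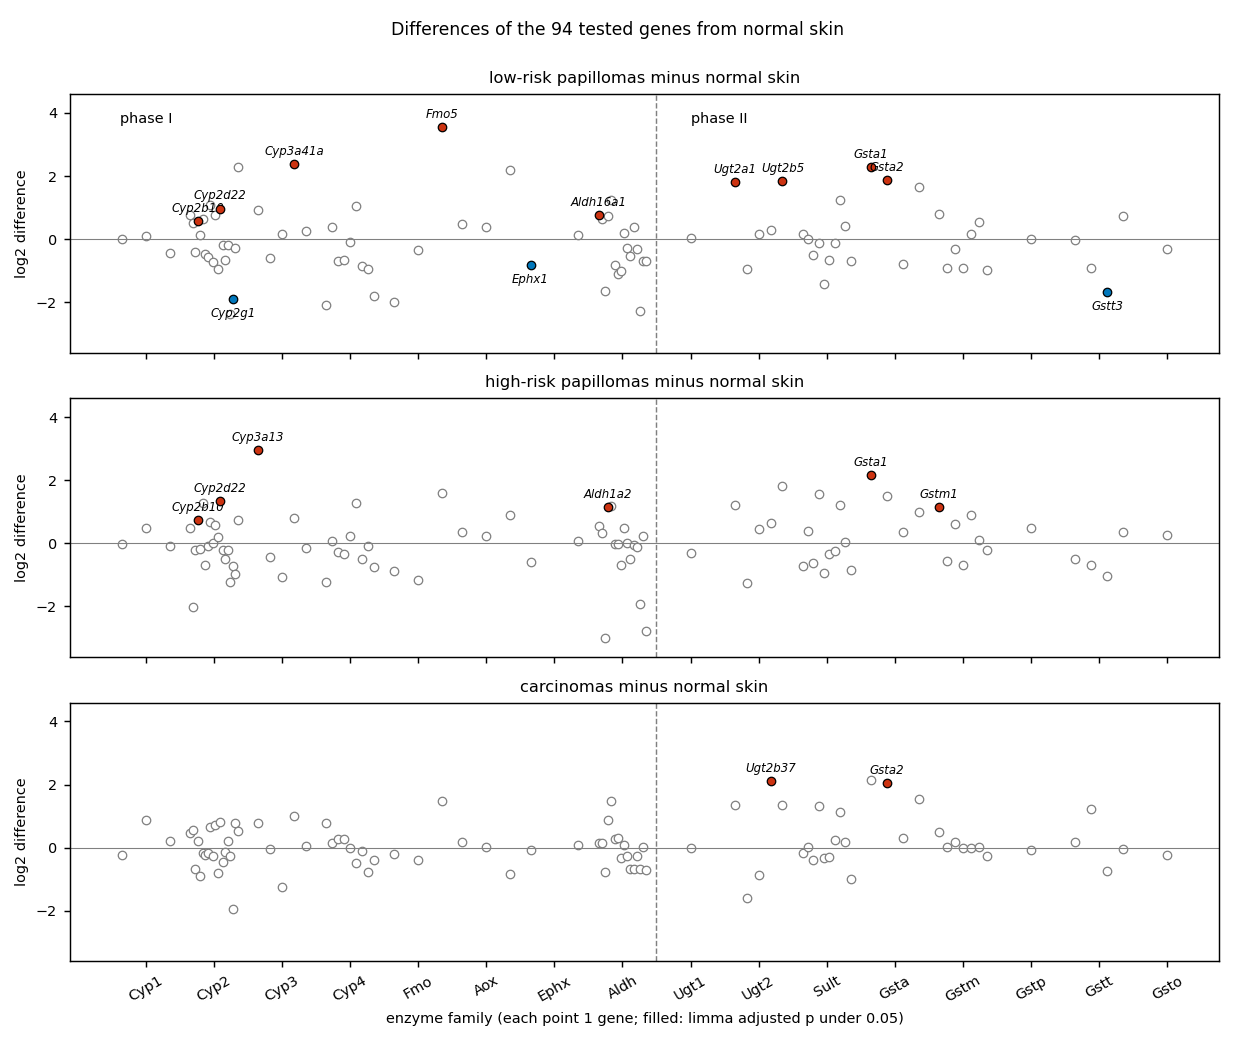
Log2 difference of each tested gene from normal skin (y axis), by enzyme family (x axis), for low-risk papillomas, high-risk ones and carcinomas; each point is 1 gene, and filled points passed limma's adjusted threshold of 0.05, red higher and blue lower. Filled points number 12, 6 and 2 in the 3 panels, and open points lie on both sides of 0 in most families.

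The family 1 cytochromes, which oxidise polycyclic hydrocarbons such as DMBA, showed no call in any of the 6 comparisons. Only 3 were tested, and 10.8% of all probes were called in at least 1 comparison. The level of Cyp1a1 had a median of 0.24 in normal skin (range -0.11 to 0.72), 0.16 in low-risk papillomas (-0.62 to 1.00), 0.25 in high-risk papillomas (-0.19 to 0.76) and 0.02 in carcinomas (-0.30 to 0.39). All 4 groups overlapped. The difference of low-risk papillomas from normal skin in Cyp1a1 was 0.01, with a 95% interval from -0.48 to 0.50, and that of carcinomas -0.23, from -0.77 to 0.31. A second Cyp1a1 probe had values in 13 samples only and gave group means of 0.96, 3.74, 3.03 and 1.28 in the same order of groups, so the 2 probes disagreed. Cyp1b1, the family member with a main role in hydrocarbon activation outside the liver, differed by -0.43 in low-risk papillomas, with an interval from -1.35 to 0.49. Cyp1a2, a mostly hepatic form, had group means from -1.71 in normal skin to -0.83 in carcinomas.

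In the Cyp2 family, the largest with 20 tested genes, 3 passed in any comparison, where 10.8% of all probes did. Cyp2d22, a mouse member of the drug-oxidising 2D subfamily, had levels of -1.60 to -0.48 (median -1.08) in 5 normal skins, -0.97 to 0.68 (median -0.32) in 8 low-risk papillomas and -0.53 to 1.45 (median 0.03) in 8 high-risk papillomas. The normal skins lay at the low end, with some overlap. The rise was 0.97 ± 0.29 (SE; adjusted p = 0.0403) in low-risk and 1.35 ± 0.29 (adjusted p = 0.00788) in high-risk papillomas, or 1.96-fold and 2.56-fold. The low-risk call was lost in 7 of 31 fits that each left out 1 sample (adjusted p up to 0.116), and the high-risk call in none. Cyp2b10, a barbiturate-inducible form, rose by less, 1.48-fold in low-risk (0.56 ± 0.18, adjusted p = 0.0482) and 1.68-fold in high-risk papillomas (0.75 ± 0.17, adjusted p = 0.0101). All 10 high-risk papillomas lay above the normal skins' mean of -0.54, with values from -0.23 to 0.49, while normal skin 2 at 0.01 lay among them. The low-risk call for Cyp2b10 was lost in 22 of the 31 fits and without normal skin 1 and carcinoma 6 (adjusted p = 0.0824), and its high-risk call in none of the 31. Within array sets, the high-risk difference in Cyp2b10 was 1.14 in set A (1 papilloma, 4 normal skins), 0.76 in set C (4 and 1) and -0.23 in set D (1 and 1).

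Cyp2g1, an olfactory form that has also been found in skin, fell. Its levels were 0.68 to 4.12 (median 1.30) in normal skin and -0.20 to 0.62 (median 0.13) in 7 low-risk papillomas, and the groups did not overlap. The fall was 1.89 ± 0.51 on the log2 scale, 3.72-fold (adjusted p = 0.0207), and it was lost without normal skin 4 (adjusted p = 0.0724) or normal skin 6 (adjusted p = 0.0741). These are the normal skins with the highest values, 4.12 and 3.82. In carcinomas the Cyp2g1 levels were -0.31 to 0.54, also without overlap with normal skin, and the difference of -1.95 ± 0.53 had an adjusted p of 0.0649. Without normal skin 1 and carcinoma 6 that comparison gave -2.32 ± 0.57 (adjusted p = 0.0228). High-risk papillomas spread from 0.29 to 3.24. Cyp2b19, a keratinocyte epoxygenase of arachidonic acid, had group means of 0.20 in normal skin, 0.83 in low-risk papillomas, 1.49 in high-risk papillomas and 0.03 in carcinomas and passed in no comparison. Cyp2e1, which oxidises ethanol and small solvents, had means between -0.96 and -0.54 in the 4 groups.

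In the Cyp3 family, known for broad drug oxidation, 2 of 5 tested genes passed, each in a different papilloma group. Over all probes 10.8% passed in any comparison. Cyp3a41a had levels of -0.52 to 1.47 (median 0.31) in normal skin and -0.15 to 4.82 (median 3.10) in low-risk papillomas, a rise of 2.39 ± 0.66 or 5.23-fold (adjusted p = 0.0227). Of the 9 low-risk papillomas 8 lay above the normal skins' mean, and the ranges overlapped. The call was lost without normal skin 3, 4 or 6 (adjusted p = 0.0691, 0.0532 and 0.054). Cyp3a13 was measured in 6 high-risk papillomas, at 1.07 to 8.23 (median 3.03), and in 5 normal skins, at -1.41 to 1.79 (median 0.40). The rise was 2.97 ± 0.87 (7.82-fold, adjusted p = 0.0461), and 1 high-risk papilloma at 8.23 stood apart from the next at 3.44. Without that sample, high-risk papilloma 10, the rise was 2.00, and 18 of the 31 leave-one-out fits lost the call. A direct test of high-risk against low-risk papillomas gave 2.05 ± 0.76 for Cyp3a13 (adjusted p = 0.168), so the difference between the papilloma groups did not pass. Genes of this family are close copies, and the probes may not tell them apart.

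Among the Cyp4 genes, which hydroxylate fatty acids, 0 of 9 passed by limma in any comparison, where 10.8% of all probes did. Cyp4f14, a leukotriene hydroxylase, had means of 1.29 in normal skin, 2.34 in low-risk papillomas, 2.57 in high-risk papillomas and 0.81 in carcinomas. Its difference of carcinomas from high-risk papillomas was -1.77 ± 0.42, with an adjusted p of 0.117. Cyp4a10, a lauric acid hydroxylase, had means of -2.10, -4.19, -3.33 and -1.31 in the same order of groups and an adjusted p of 0.0773 in carcinomas against low-risk papillomas. Cyp4b1, expressed in lung and skin, had means between -1.84 and -0.91.

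Fmo5, a flavin-containing monooxygenase, showed the largest fold of the 22 calls. Its levels were 0.19 to 2.78 (median 1.30) in normal skin and 2.43 to 6.73 (median 5.41) in low-risk papillomas, with 1 papilloma inside the normal range and 8 above it. The rise was 3.54 ± 0.70, or 11.7-fold (adjusted p = 0.00228), and held in all 31 leave-one-out fits, with differences of 3.29 to 3.86. High-risk papillomas spread from 0.50 to 6.20, and carcinomas from 1.53 to 4.40. Their differences from normal skin, 1.60 ± 0.68 (adjusted p = 0.178) and 1.49 ± 0.76 (adjusted p = 0.477), did not pass. A second Fmo5 probe gave means of 0.10 in normal skin, 0.55 in low-risk papillomas, 0.61 in high-risk ones and -0.04 in carcinomas, against 1.44, 4.98, 3.03 and 2.93 for the probe used, so the rise rests on 1 of 2 probes. Fmo2, the form of lung and other tissues outside the liver, had means of 0.03, -0.33, -1.15 and -0.36 and passed nowhere. A second Fmo2 probe, with values in 30 samples, gave -0.63, -1.91, -1.20 and -0.42. It was lowest in low-risk papillomas, where the probe used was lowest in high-risk ones.

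Aox4, an aldehyde oxidase that turns retinal into retinoic acid and is known from the Harderian gland and skin, separated carcinomas from low-risk papillomas. Its levels were 1.07 to 4.87 (median 3.65) in low-risk papillomas and -1.45 to 1.01 (median 0.47) in carcinomas, and the groups did not overlap. The fall was 3.03 ± 0.70 on the log2 scale, 8.16-fold (adjusted p = 0.0282). It was lost without low-risk papilloma 5 (adjusted p = 0.0603) and without carcinoma 1, 2 or 3 (0.0755, 0.0663 and 0.0751). The 6 low-risk papillomas of array set B had Aox4 levels of 3.51 to 4.87, and the 3 of set D had 1.07, 1.55 and 1.80. Within set D the carcinomas were lower by 1.55, with no overlap. High-risk papillomas split in a like way, with 1.32, 5.63, 4.82 and 3.14 in set E, and 0.20 to 0.63 in set C. Normal skin varied little, from 0.75 to 1.34. Against normal skin the low-risk level of Aox4 was higher by 2.18 ± 0.70 (adjusted p = 0.051). The other aldehyde oxidases, Aox1 and Aox3, had means between -0.68 and 0.20 in all groups.

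Ephx1, the microsomal epoxide hydrolase that takes part in the activation of DMBA, fell in low-risk papillomas. Its levels were -0.38 to 0.26 (median 0.01) in normal skin and -1.67 to 0.38 (median -0.98) in low-risk papillomas, where 8 of 9 lay below the normal mean of -0.02. The fall was 0.81 ± 0.24 on the log2 scale, 1.75-fold (adjusted p = 0.0379), and it was lost in 9 of 31 leave-one-out fits and without normal skin 1 and carcinoma 6 (adjusted p = 0.0744). The high-risk value, -0.58 ± 0.24, had an adjusted p of 0.162, and carcinomas were near normal skin at -0.08 ± 0.27. Ephx2, the soluble form that hydrolyses fatty acid epoxides, lay between -0.59 and -0.45 in the group means, with differences from normal skin that did not pass.

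Of 16 aldehyde dehydrogenases 2 passed in any comparison, near the share of 10.8% over all probes. Aldh1a2, which makes retinoic acid, rose 2.23-fold in high-risk papillomas (1.16 ± 0.35, adjusted p = 0.0496). Its levels were -1.65 to -0.14 (median -0.81) in normal skin and -0.62 to 2.26 (median 0.11) in high-risk papillomas, with overlap, and the call was lost in 21 of 31 leave-one-out fits. Aldh16a1, an unusual member of the family, rose 1.70-fold in low-risk papillomas (0.77 ± 0.23, adjusted p = 0.0403), from levels of -0.25 to 0.32 to levels of -0.38 to 2.01, and was lost in 8 of those fits and without normal skin 1 and carcinoma 6 (adjusted p = 0.0543). Without that pair Aldh1l1, a folate enzyme, passed in low-risk papillomas (-1.30 ± 0.39, adjusted p = 0.0388). Aldh1a3, another retinal dehydrogenase, was at or above 0.31 in all 7 high-risk papillomas and 4 carcinomas measured and at or below -0.10 in the 4 normal skins, so these groups did not overlap. Its differences of 1.17 ± 0.50 and 1.47 ± 0.57 had adjusted p-values of 0.19 and 0.273. Aldh1a1 lay far below the reference in every group, with means of -2.53 in normal skin, -4.19 in low-risk, -5.54 in high-risk papillomas and -3.31 in carcinomas and ranges that reached -11.09. Its high-risk values split by array set, with -9.84 to -9.11 in set E and -4.28 to -0.46 in the other sets. Aldh3a1 and Aldh3a2, which oxidise lipid aldehydes, had means between -0.08 and 0.60. The highest, 0.60 in normal skin, was that of Aldh3a2, which was lower in low-risk papillomas by 0.54 ± 0.20 (adjusted p = 0.0956).

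**Figure D2:**
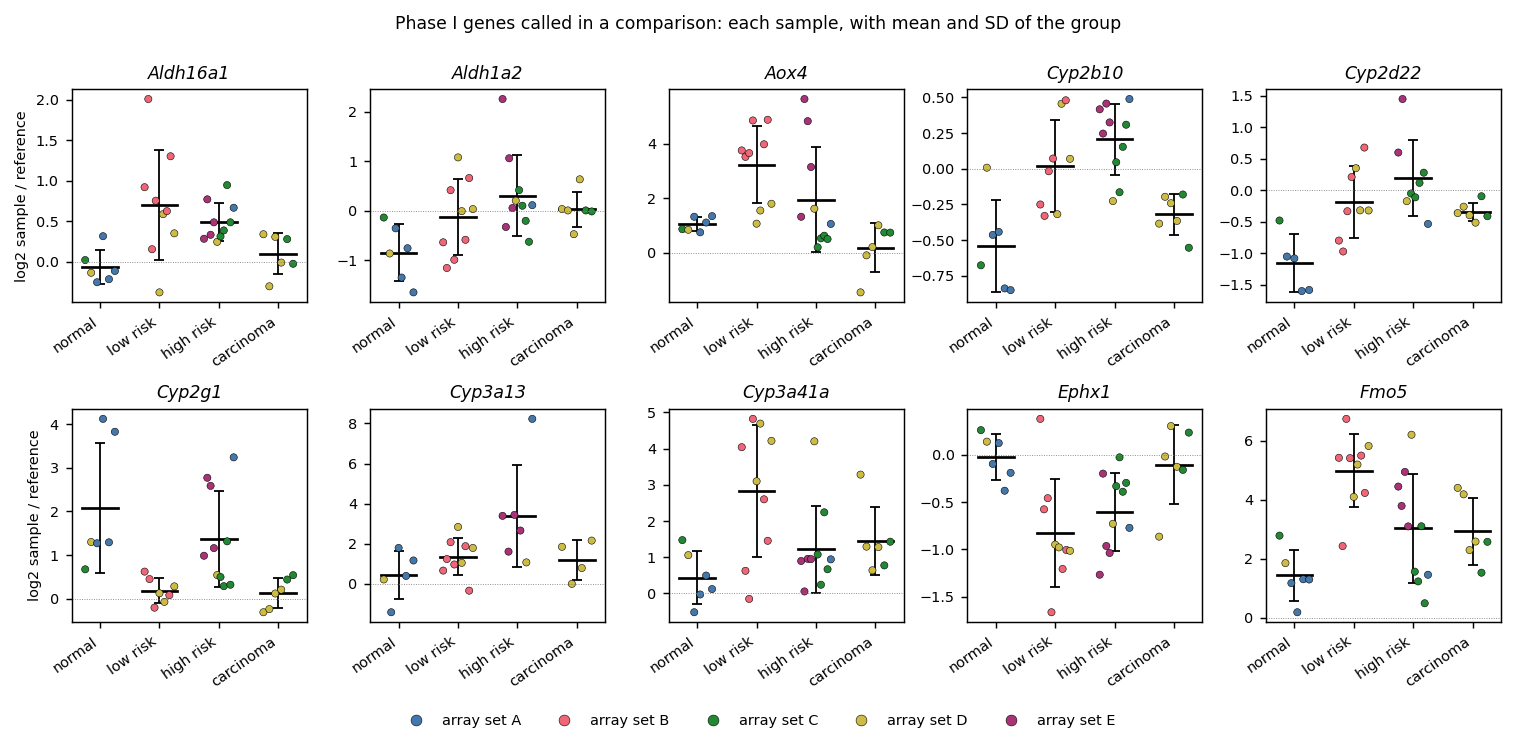
Log2 of sample over reference (y axis, scale set per gene) of the 10 phase I genes called in any comparison, for each sample of the 4 groups (x axis); colour gives the array set, and the black line and bars give the group mean and SD. Aox4 in carcinomas lies below every low-risk papilloma, at most 1.01 against at least 1.07, and Fmo5 is above 2.4 in all 9 low-risk papillomas.

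Among phase II genes, Ugt2b37, a UDP-glucuronosyltransferase, was the only one to pass in carcinomas against low-risk papillomas, and it also passed against normal skin. Its levels were -0.04, 0.53, 0.37, -0.25, 0.15 and -0.64 in carcinomas 1 to 6. Normal skins lay at -2.91 to -0.75 (median -2.27), low-risk papillomas at -3.50 to -0.84 (median -1.66) and high-risk papillomas at -2.87 to -0.22 (median -1.43). Carcinomas did not overlap with normal skin or low-risk papillomas, and overlapped with high-risk papillomas. The rise was 2.11 ± 0.41 over normal skin (4.31-fold, adjusted p = 0.00742) and 1.82 ± 0.37 over low-risk papillomas (3.53-fold, adjusted p = 0.0131), and both calls held in all 31 leave-one-out fits. Against high-risk papillomas the difference was 1.48 ± 0.37 (adjusted p = 0.132). Within array set D, with 4 carcinomas, it was 2.08 over low-risk papillomas and 2.30 over normal skin, and within set C 0.51 over 1 normal skin, the one that is near-identical to carcinoma 6.

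Calls of other UDP-glucuronosyltransferases came from low-risk papillomas against normal skin. Ugt2b5 had levels of -2.29 to -0.13 (median -1.60) in 5 normal skins and -0.91 to 1.83 (median 0.69) in 8 low-risk papillomas, a rise of 1.84 ± 0.51 or 3.58-fold (adjusted p = 0.0286) with overlap. The call was lost without normal skin 4, 5 or 6 or low-risk papilloma 5 (adjusted p = 0.0748, 0.0777, 0.098 and 0.0533). Ugt2a1, known from the olfactory epithelium, rose 3.51-fold in low-risk papillomas (1.81 ± 0.52, adjusted p = 0.0298), with levels of -1.35 to 1.80 in normal skin and 0.39 to 2.93 in papillomas. Its call was lost in 7 of 31 leave-one-out fits. High-risk papillomas also passed without normal skin 1 and carcinoma 6, in Ugt2b5 (2.08 ± 0.59, adjusted p = 0.0345) and Ugt2a1 (1.73 ± 0.51, adjusted p = 0.0351). Carcinomas did not pass in either gene, though their means were above those of normal skin. These were 0.18 against -1.17 in Ugt2b5 and 1.06 against -0.29 in Ugt2a1. Ugt2a3 had a mean of 2.04 in normal skin and 1.08, 0.79 and 0.42 in the 3 tumour groups, in the order low-risk, high-risk and carcinoma. Without normal skin 1 and carcinoma 6 its differences of -2.02 ± 0.52 in carcinomas (adjusted p = 0.0313) and -1.66 ± 0.47 in high-risk papillomas (adjusted p = 0.0313) passed. Ugt1a6a, which conjugates phenols, had means between -1.02 and -0.67.

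The promoter stretches of Ugt2b37 and Ugt2b5 are shown because these paralogues passed in different tumour groups. The sequences are those of RefSeq in GRCm38.p6, from 150 bases before the annotated start to 30 bases after it, and capitals mark matches to a motif. The motifs searched, on both strands, were GCGTG, the core bound by the aryl hydrocarbon receptor and its partner, and TGACNNNGC, the core of the antioxidant response element. Ugt2b37 is at chr5:87254759-87254938 and Ugt2b5 at chr5:87140311-87140490, both on the minus strand.
Ugt2b37: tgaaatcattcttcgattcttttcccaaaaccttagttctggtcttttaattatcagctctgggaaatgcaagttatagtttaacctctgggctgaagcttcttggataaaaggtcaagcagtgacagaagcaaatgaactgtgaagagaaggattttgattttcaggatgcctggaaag
Ugt2b5: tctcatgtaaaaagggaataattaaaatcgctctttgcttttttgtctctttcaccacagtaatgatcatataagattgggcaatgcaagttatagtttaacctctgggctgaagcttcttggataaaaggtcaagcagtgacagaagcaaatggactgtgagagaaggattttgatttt
Neither stretch holds a match. Over the whole windows, from 250 bases before to 50 after the start, 276 aligned bases were 89.1% identical. The probes' own sequences were not used here, so how well they tell these paralogues apart is unknown.

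Sulfotransferases gave 0 calls by limma among 10 tested genes, where 10.8% of all probes were called in any comparison. Sult2b1, which makes cholesterol sulfate in the epidermis, was above the reference in every group, with means of 1.27 in normal skin, 2.50 in low-risk papillomas, 2.50 in high-risk papillomas and 2.40 in carcinomas. Its differences from normal skin of 1.23 ± 0.43, 1.23 ± 0.46 and 1.13 ± 0.48 had adjusted p-values of 0.0797, 0.118 and 0.326. Sult1c2 had means of -2.57, -2.68, -0.999 and -1.24 in the same order, and high-risk papillomas differed from low-risk ones by 1.68 ± 0.50 (adjusted p = 0.0949). Without normal skin 1 and carcinoma 6, Sult2b1 passed in low-risk papillomas (1.44 ± 0.46, adjusted p = 0.0499) and Sult1c2 in high-risk papillomas (1.96 ± 0.55, adjusted p = 0.0275), both against normal skin. Sult1a1, which sulfates phenols, had means between -0.52 and 0.37.

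Of the 4 alpha-class glutathione transferases tested, which conjugate electrophiles and reduce lipid peroxides, Gsta1 and Gsta2 passed and Gsta3 and Gsta4 did not. Over all probes 10.8% passed in any comparison. Gsta3 had means of -1.43 in normal skin, -2.21 in low-risk papillomas, -1.07 in high-risk ones and -1.12 in carcinomas. Gsta1 had levels of 2.32, -1.96, -1.06, -1.64, -1.44 and -1.97 in normal skins 1 to 6. It lay at 0.32 to 2.42 (median 1.31) in low-risk papillomas, -0.20 to 3.63 (median 0.84) in 8 high-risk papillomas and -0.49 to 2.35 (median 1.30) in carcinomas. Apart from normal skin 1, every normal skin was below every tumour. Gsta1 rose 4.85-fold in low-risk papillomas (2.28 ± 0.59, adjusted p = 0.016) and 4.52-fold in high-risk papillomas (2.18 ± 0.60, adjusted p = 0.031). Without normal skin 1 and carcinoma 6 these values were 2.93 ± 0.50 (adjusted p = 0.000446) and 2.83 ± 0.51 (adjusted p = 0.000918), and carcinomas also passed with 2.60 ± 0.57 (adjusted p = 0.00901). The low-risk call was lost without normal skin 6 (adjusted p = 0.0525), and the high-risk call in 8 of 31 leave-one-out fits. Within array sets, the high-risk Gsta1 difference was 2.50 in set A, 2.57 in set D and -2.18 in set C, whose normal skin is number 1.

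Gsta2 behaved alike, with levels of -1.85 to 2.01 (median -0.97) in normal skin, 0.35 to 1.89 (median 1.36) in low-risk papillomas and -0.11 to 2.36 (median 1.49) in carcinomas. Again normal skin 1 held the highest normal value, and the next was -0.69. The rise was 3.65-fold in low-risk papillomas (1.87 ± 0.49, adjusted p = 0.0163) and 4.13-fold in carcinomas (2.05 ± 0.53, adjusted p = 0.049). Without normal skin 1 and carcinoma 6 it was 2.40 ± 0.43 (adjusted p = 0.000704) and 2.47 ± 0.49 (adjusted p = 0.00375), and high-risk papillomas passed too, with 2.02 ± 0.43 (adjusted p = 0.00344). The low-risk call was lost without normal skin 6 (adjusted p = 0.06), and the carcinoma call in 25 of 31 leave-one-out fits. The carcinoma difference in Gsta2 was 2.74 within set D and -0.51 within set C. Gsta4, which clears the lipid aldehyde 4-hydroxynonenal in the cell, had means of 0.50 in 3 normal skins, 2.15 in low-risk papillomas, 1.49 in high-risk papillomas and 2.05 in carcinomas and did not pass (lowest adjusted p = 0.0859).

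The promoter stretches of Gsta1 and Gsta2 are shown because these 2 genes are near copies that rose together, and each holds 1 GCGTG match next to the start. They are again from RefSeq in GRCm38.p6, 150 bases before to 30 after the start, with the match in capitals. Gsta1 is at chr9:78230519-78230698 on the plus strand and Gsta2 at chr9:78347116-78347295 on the minus strand.
Gsta1: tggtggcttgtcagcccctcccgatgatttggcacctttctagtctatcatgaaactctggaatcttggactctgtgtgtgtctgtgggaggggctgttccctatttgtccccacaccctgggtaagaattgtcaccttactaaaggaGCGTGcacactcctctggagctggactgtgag
Gsta2: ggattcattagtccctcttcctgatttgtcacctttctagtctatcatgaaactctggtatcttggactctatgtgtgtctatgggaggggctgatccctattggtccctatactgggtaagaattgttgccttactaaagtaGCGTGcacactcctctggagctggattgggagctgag
The windows of the 2 genes, which lie mostly before the start, were 80.3% identical over 289 aligned bases. The probes' own sequences were not used here, so whether a probe reads both transcripts is unknown. The 2 rises may therefore not be separate measurements. A GCGTG match is common: 35.2% of all 27025 genes with a window of this length hold one. Of the 98 enzyme genes 83 had a window, and 25.3% of these held GCGTG and 9.64% TGACNNNGC, against 14% of all genes for the latter. A match describes the letters and does not show a binding site.

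In the other glutathione transferases the changes went both ways. Gstm1, a mu-class form, was measured in 4 normal skins at -0.13 to 0.87 (median 0.12) and in 9 high-risk papillomas at 0.87 to 2.05 (median 1.43), with the ranges touching. The rise was 1.14 ± 0.30, or 2.21-fold (adjusted p = 0.0273), and was lost in 5 of 31 leave-one-out fits. Gstm5 had means of 0.57 in normal skin, 0.74 in low-risk papillomas, 1.48 in high-risk ones and 0.56 in carcinomas and did not pass. Gstm4 passed in low-risk papillomas without normal skin 1 and carcinoma 6 (-1.13 ± 0.34, adjusted p = 0.0344). Gstt3, of the theta class, fell in low-risk papillomas, from levels of 0.18 to 1.85 (median 0.40) to levels of -2.53 to 0.04 (median -1.08), with no overlap. The fall was 1.69 ± 0.37 on the log2 scale, 3.22-fold (adjusted p = 0.00514), and held in all 31 leave-one-out fits. High-risk papillomas had a Gstt3 difference of -1.04 ± 0.36 (adjusted p = 0.0907) and carcinomas of -0.76 ± 0.40 (adjusted p = 0.511). Gstt2 was higher in 4 carcinomas (-0.58 to -0.05) than in 5 normal skins (-2.37 to -0.93) without overlap, but the difference of 1.22 ± 0.71 had an adjusted p of 0.581. Gstp1, the main pi-class form of many epithelia, had means between 0.30 and 0.87, and Gsto1, of the omega class, between -0.22 and 0.36.

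**Figure D3:**
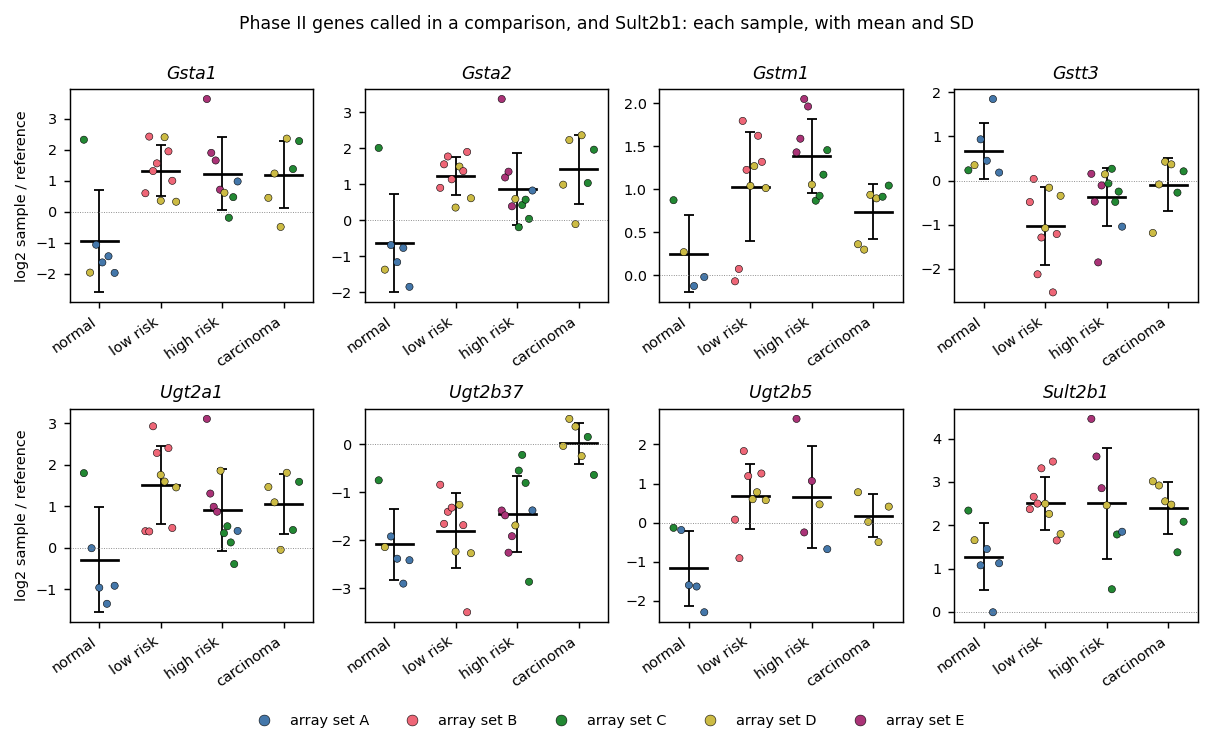
Log2 of sample over reference (y axis, scale set per gene) of the 7 phase II genes called in any comparison and of Sult2b1, for each sample of the 4 groups (x axis); colour gives the array set, and the black line and bars give the group mean and SD. Normal skin 1, of array set C, lies at 2.32 in Gsta1, among the tumours, while the other normal skins lie at -1.06 or below.

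The array set took most of these calls when it was entered in the fit. With the set as a block, 21 of the 22 calls were lost, while all 22 kept their direction. The differences were then 16.4% (Ugt2a1 in low-risk papillomas) to 172% (Cyp3a13 in high-risk papillomas) of those without the block, and 14 of 22 were at least 50% of them. Ugt2b37 in carcinomas over low-risk papillomas went from 1.82 to 1.88 (adjusted p = 0.358 with the block). Fmo5 went from 3.54 to 1.71 (adjusted p = 0.825), Aox4 from -3.03 to -1.30 (adjusted p = 0.755), and Gsta1 in low-risk papillomas from 2.28 to 2.04 (adjusted p = 0.721). Cyp3a13 kept its call (5.09, adjusted p = 0.0273), but only sets A and D measured it in both high-risk papillomas and normal skin. Within set A the difference was 7.74, from 4 normal skins and 1 papilloma, the one at 8.23 that stood apart from its group. Within set D the Cyp3a13 difference was 0.85, from 1 sample of each group. Over all probes most calls were lost too, with 7 of 18904 probes still called in low-risk papillomas against normal skin. Set B holds low-risk papillomas only, so for these papillomas array set and group cannot be told apart. Set D alone measures 9 of the 12 low-risk calls against normal skin, all in the same direction, against its 1 normal skin.

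**Figure D4:**
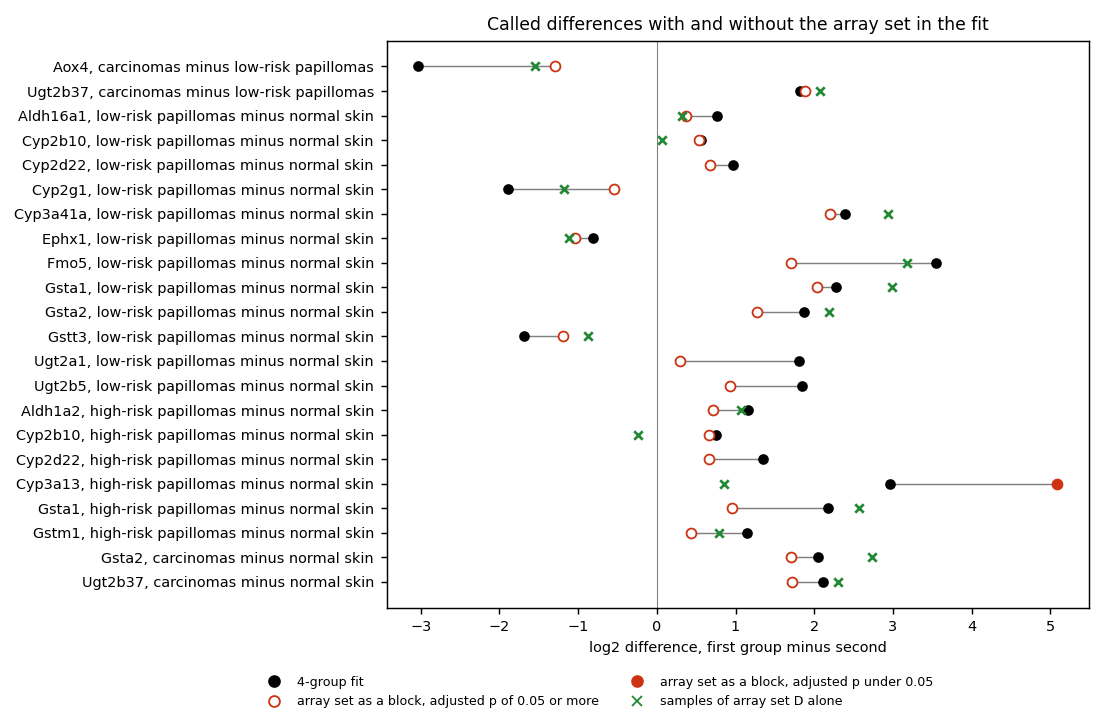
Log2 difference (x axis) of each of the 22 calls (y axis) in the 4-group fit (black), with the array set as a block (red outline, filled where the adjusted p was under 0.05) and within array set D alone (green cross, where measured). All 22 red points lie on the same side of 0 as the black ones, 1 is filled, and the cross of Cyp2b10 in high-risk papillomas, at -0.23, is on the other side.

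Of the other genes of the pathway, 3 of 17 regulators, 3 of 18 other phase I enzymes, 3 of 18 conjugation and cofactor genes and 1 of 13 transporters passed in any of the 6 comparisons, where 10.8% of all probes did. Among the regulators, Nfe2l2, the transcription factor that drives antioxidant response genes, rose in low-risk (1.68 ± 0.41, adjusted p = 0.0111) and high-risk papillomas (1.62 ± 0.40, adjusted p = 0.0167). Rxra, the partner of many nuclear receptors, rose in low-risk papillomas (1.14 ± 0.20, adjusted p = 0.000936) and fell from low-risk papillomas to carcinomas (-0.92 ± 0.20, adjusted p = 0.0202), as did Tiparp, an aryl hydrocarbon receptor target (-1.01 ± 0.26, adjusted p = 0.0467). Among the other phase I enzymes, Akr1c18, Maoa and Xdh rose in low-risk papillomas, and Akr1c18, which reduces progesterone, fell from these to high-risk papillomas (-1.15 ± 0.24, adjusted p = 0.0188) and carcinomas (-1.25 ± 0.27, adjusted p = 0.0203). Among the conjugation and cofactor genes, Ugdh, which makes the sugar donor of the Ugt enzymes, rose and Nnmt fell in high-risk papillomas against normal skin. Gsr, which regenerates glutathione, rose in carcinomas over normal skin (1.65 ± 0.37, adjusted p = 0.0196) and over high-risk papillomas (1.65 ± 0.33, adjusted p = 0.0498). The transporter was the drug efflux pump Abcb1b, higher in low-risk papillomas (1.13 ± 0.35, adjusted p = 0.0473). With the array set as a block none of these passed by limma, and counts at an unadjusted p were not made there.

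Some markers of other tissues and cell types passed in the same comparisons. Over all probes, 7.55% passed for low-risk papillomas against normal skin, 3.94% higher and 3.61% lower. The share was 5.01% for the high-risk group and 1.16% for carcinomas, each against normal skin. It was 1.12% for carcinomas against the low-risk group and 0.667% between the papilloma groups. Whether any of these short lists exceeded the share over all probes was not tested. Of 9 skeletal muscle genes 2 fell in low-risk papillomas against normal skin and 2 in high-risk papillomas, and the mean level of the 9 ranged from 0.01 to 2.04 in normal skins, -0.45 to 0.95 in low-risk papillomas, -0.33 to 0.78 in high-risk papillomas and 0.13 to 1.16 in carcinomas. Of 12 sebaceous and adipose genes 1 rose and 2 fell in low-risk, 2 fell in high-risk papillomas and 1, Lep, fell in carcinomas, all against normal skin. Of 10 keratinocyte genes Sfn rose in high-risk papillomas against normal skin (2.75 ± 0.53, adjusted p = 0.00398), and the mean level of the 10 averaged 1.81 in normal skin, 2.55 in low-risk papillomas, 2.37 in high-risk ones and 1.58 in carcinomas. Of 11 fibroblast genes Col5a2 rose in low-risk papillomas (1.498 ± 0.469, adjusted p = 0.0477) and Dcn fell in high-risk papillomas (-3.50 ± 0.97, adjusted p = 0.036) against normal skin, with mean levels of the 11 between -1.97 and 0.53 over all samples. The 13 hepatocyte genes, tested because several of these enzymes are best known from liver, had mean levels below that of the reference in every normal skin (-0.71 to -0.29), every low-risk papilloma (-1.69 to 0.00) and every carcinoma (-0.60 to -0.17), and between -2.13 and 0.08 in high-risk papillomas. Among them Trf, which is also made outside the liver, was lower in high-risk papillomas than in normal skin (-5.48 ± 1.28, adjusted p = 0.0151) and than in low-risk papillomas (-4.83 ± 1.13, adjusted p = 0.0455). Of 10 macrophage genes 1 was higher in carcinomas than in low-risk papillomas, with mean levels of -0.34 to 1.05 against -1.79 to 0.18. The part of these cell types in the enzyme differences was not tested.

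The 10 papillomas of unknown risk were measured on another design with other probes and were normalised apart from the rest, so their levels are set beside the groups only as description. Gsta1 was above the reference in all 10, at 0.92 to 3.28, and Gsta2 in all 10, at 0.46 to 2.29 (median 1.48). Aox4, with values in 9, lay at 0.73 to 5.15 (median 3.58). Ugt2b37, with values in 7, lay at -0.96 to 0.69 in 6 and at 6.90 in unknown papilloma 5. Gstt3 was below the reference in 9 of 10 (median -1.62) and Ephx1 in 8 of 10 (median -0.64), while Fmo5 had a median of 0.76 and a range of -2.40 to 1.88. Gstm1 lay at -3.75 to -2.32 in all 10, below the range of every labelled group, and Aldh1a2 at -3.58 to -1.04, in part within the range of normal skin. Sult2b1 lay at 3.80 to 8.98. By sample, the median over the phase I genes ran from -1.08 to -0.18 and that over the phase II genes from -1.27 to 0.23.

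**Figure D5:**
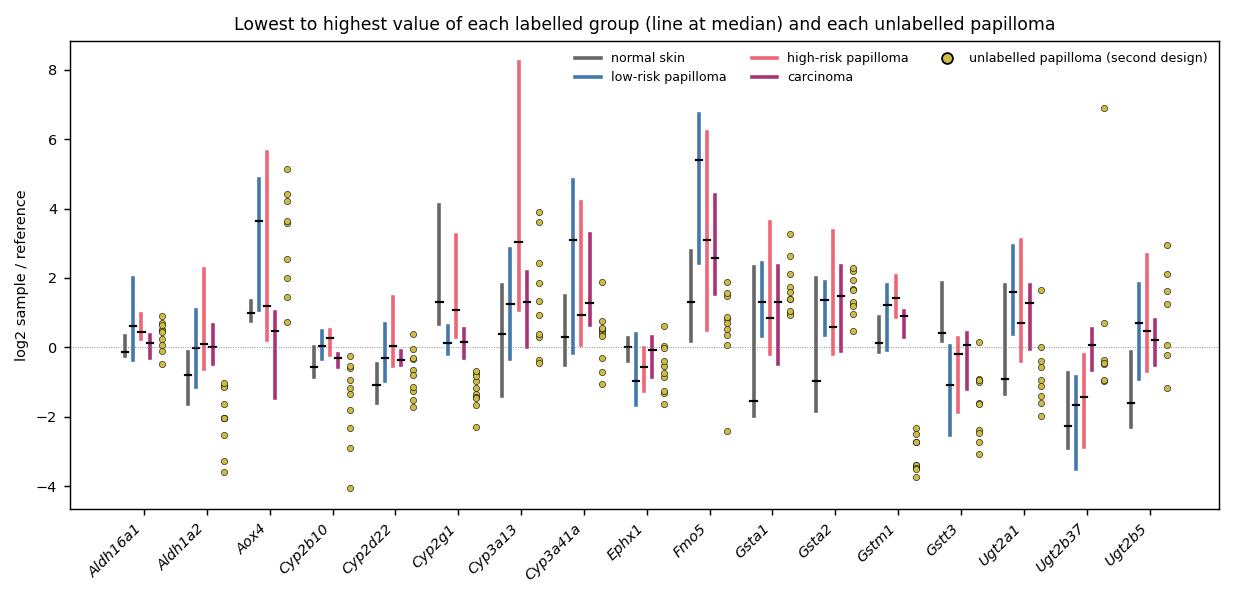
Log2 of sample over reference (y axis) of the 17 called genes (x axis): bars run from the lowest to the highest value of each labelled group with the median marked, and circles are the unknown papillomas, measured with other probes and normalised apart. The circles of Gsta1 and Gsta2 are all above 0, and those of Gstm1 are all at -2.32 or below.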

How the data were processed

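The deposited log2 ratios of 42 arrays were made by the authors, whose normalization and spot filters are not given in the sources used here. They were read as base 2, since values reached 15.02 in size, beyond a natural or decimal log of a scanner's range. Per the labels, RNA was extracted from whole tissue, and the reference was in Cy5 on all but 1 array. Signs of all arrays except the swapped one were turned, each array was centred on its median, and the swapped array was averaged with the other array of the same tumour by its source name, although the pair correlated at only 0.306 across probes and the title gives another number. Of 21997 probes of the first design 16076 had 1 annotated symbol, 288 several and 5633 none. A probe was tested with at least 3 values in every group and in at least 70% of samples, and 1 probe per symbol was kept, the one with most values. The 4 groups were fitted with limma 3.58.1 in R 4.3.3, with moderated variances and Benjamini-Hochberg adjustment. The fit was checked on simulated data with known changes. Its samples were independent and had no array sets, so the check cannot speak to the effect of these sets. Named genes are those past the threshold of 0.05, the 2 of each family with the smallest p over the 4 groups, and a list of textbook genes. Ugt2a3, Aldh1l1, Gsta3 and Gstm4 were named after their values were seen, and the 4 genes not tested are named only. The genes and lists were chosen with earlier results of these data known. Samples with the same replicate number in different groups correlated at a median r of -0.0245 after removal of group means, and those with different numbers at 0.01. The medians gave no sign that numbers pair samples. They cannot exclude it, since the 37 same-number pairs ranged from -0.343 to 0.207 and array sets also shape these correlations. Some tumours share a code. These are high-risk papillomas 1 and 2, 3 and 5, and 6 and 10, and low-risk papillomas 2 and 8. Nothing says which tumours came from the same mouse, so these may not be independent. The p-values thus measure the spread between these samples. Sequences were aligned with Biopython. Alternatives were other scalings, filters, probe summaries, treatments of the swapped array, blocks, weights and samples left out.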

Additional observations from a re-analysis of the deposited data

Results flagged for a closer look

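In 11 of 171 gene and group sets tested, or 6.43%, 1 sample stood apart from its group, where chance flags about 1 in 20. Normal skin 1, near-identical to carcinoma 6, did so in Gsta1 (2.32, with the other normal skins at -1.97 to -1.06), in Gsta2 (2.01, the others -1.85 to -0.69) and in Gsto1 (-0.80, the others 0.05 to 0.53). High-risk papilloma 10 stood at 8.23 in Cyp3a13 (the others 1.07 to 3.44), high-risk papilloma 5 at 4.20 in Cyp3a41a (the others 0.06 to 2.24) and high-risk papilloma 1 at 3.36 in Gsta2 (the others -0.20 to 1.35). Carcinoma 1 stood at 3.28 in Cyp3a41a (the others 0.64 to 1.43) and at -3.12 in Cyp4a10 (the others -1.39 to -0.50), and carcinoma 5 at -0.34 in Cyp2b19 (the others 0.08 to 0.16). Low-risk papilloma 8 stood at -11.09 in Aldh1a1 (the others -5.14 to -1.01) and low-risk papilloma 5 at -1.83 in Fmo2 (the others -0.66 to 0.48). These are log2 levels over the reference.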

How the results depend on the processing

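The counts of enzyme genes called follow in 1 order: high-risk against low-risk papillomas, carcinomas against low-risk papillomas, carcinomas against high-risk papillomas, then low-risk and high-risk papillomas and lastly carcinomas, each against normal skin. In this order they were 0, 2, 0, 12, 6 and 2 as reported (126, 212, 8, 1427, 948 and 219 of all probes). They were 0, 1, 0, 11, 14 and 7 with quantile normalization (65, 180, 95, 1751, 1794 and 890 of all probes). With scale normalization they were 0, 0, 0, 7, 10 and 6 (37, 116, 70, 1417, 1572 and 715 of all probes). With genes measured in every sample, which tests 34 enzyme genes, they were 0, 4, 0, 7, 2 and 2 (110, 164, 0, 604, 481 and 101 of 5583 probes). With at least 2 values in every group they were 0, 2, 0, 12, 5 and 1 (138, 208, 6, 1430, 935 and 197 of all probes). Without the swapped array they were 0, 2, 0, 8, 3 and 1 (102, 160, 6, 1013, 724 and 180 of all probes). With it as a separate sample they were 0, 3, 0, 10, 3 and 1 (187, 215, 6, 1218, 649 and 154 of all probes). The array set as a block gave 0, 0, 0, 0, 1 and 0 (0, 0, 0, 7, 42 and 14 of all probes). The range of the database number in the labels as a block gave 0, 1, 1, 10, 1 and 0 (12, 183, 28, 1293, 83 and 39 of all probes). The replicate number as a block, although nothing showed that numbers pair the samples, gave 0, 2, 0, 9, 6 and 1 (112, 212, 7, 963, 849 and 151 of all probes). It kept 10 of the 22 calls. Fits of only the 2 groups compared gave 0, 3, 0, 7, 4 and 3 (0, 171, 1, 611, 834 and 672 of all probes). Array weights gave 8, 13, 0, 31, 19 and 22, with the counts over all probes given above. All probes of a symbol kept gave 0, 2, 0, 11, 5 and 1 (121, 219, 6, 1464, 1003 and 213 of all probes). Without normal skin 1 and carcinoma 6 they were 0, 2, 0, 12, 11 and 5 (112, 144, 8, 1526, 1363 and 488 of all probes). Set D alone gave 0 in all 6 and set C alone 0 in the 3 it can give, with few samples in each. The cause was not tested. Leaving out 1 sample at a time gave 0 to 4 (most without high-risk papilloma 5), 1 to 9 (most without low-risk papilloma 6), 0 to 1, 2 to 18 (fewest without normal skin 6, most without low-risk papilloma 6), 2 to 11 (fewest without normal skin 2, most without normal skin 1) and 1 to 5 (most without normal skin 1). Directions reversed in 3 cases, all within 1 array set: Cyp2b10 in high-risk papillomas (-0.23, set D), Gsta1 in high-risk papillomas (-2.18, set C) and Gsta2 in carcinomas (-0.51, set C), each against 1 normal skin. No centring, the mean of a symbol's probes, the shared code as a random block and robust variances kept every count within 1.5 times. Of the other genes of the pathway, 3 regulators, 3 other phase I enzymes, 3 conjugation and cofactor genes and 1 transporter passed in at least 1 comparison. In that order the array set as a block gave 0, 0, 0 and 0, array weights 7, 9, 8 and 7, set D alone 0, 0, 0 and 1, quantile normalization 2, 2, 5 and 3, scale normalization 2, 2, 5 and 4, the database range as a block 3, 3, 1 and 0, the replicate block 3, 2, 1 and 0, and genes measured in every sample 2, 0, 2 and 1. Without the swapped array they were 2, 2, 2 and 0, with it as a separate sample 3, 3, 3 and 0, and on leaving out 1 sample 2 to 5, 2 to 5, 0 to 5 and 0 to 2. Set D and set C alone and all probes kept were chosen after seeing the data. The number of arrays limits these counts, and signal over background was not used here.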
